A study of Mus musculus with 16 samples.

Results

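The 47 genes described here build the machinery that copies DNA: they load the replicative helicase on origins, start it, carry the fork, supply the nucleotides and keep the methylation of the new strand. They were chosen by symbol, as a fixed list, and each symbol has 1 entry among the 56691 genes counted. The counts come from single light zone (LZ) B cells of germinal centers (GCs), sequenced by SMART-seq2 after sorting from lymph nodes of 8 host mice. Each host had received B1-8hi BTKC481S and B1-8hi BTKWT B cells together. B1-8hi cells carry a knock-in heavy chain that gives high affinity for the hapten NP, and in BTKC481S cells the kinase BTK carries a change that acalabrutinib, a BTK inhibitor, does not act on. All hosts were C57BL/6J or B6.SJL males primed with ovalbumin and boosted with NP-ovalbumin, and all transferred cells carried the B1-8hi receptor. Of the hosts, 5 (A7, A8, A10, A11, A12) received acalabrutinib by mouth and 3 (V5, V7, V9) received its vehicle. Genotype cannot be read from the names of the cells, so both genotypes of a host were summed and the host served as the replicate. The hosts gave 45 to 130 cells each, 637 in all. A treatment effect that differs between sensitive and resistant cells is therefore averaged in these values.

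Before a cell can divide it licenses its origins: the origin recognition complex (*Orc1* to *Orc6*) binds DNA, *Cdc6* and *Cdt1* load the ring of *Mcm2* to *Mcm7*, and geminin (*Gmnn*) holds *Cdt1* back once licensing is done. In S phase the kinase *Cdc7* with its activator *Dbf4* phosphorylates the ring, *Cdc45* and the GINS proteins complete the helicase, and polymerases, the sliding clamp *Pcna* and its loader *Rfc1* to *Rfc5* follow the fork. Ribonucleotide reductase, with its large catalytic subunit *Rrm1* and small subunit *Rrm2*, and thymidylate synthase (*Tyms*) make the deoxynucleotides. GC B cells selected in the LZ by T cell help induce *Myc*, re-enter the cell cycle and move to the dark zone, where most of their divisions take place. Many of these genes are textbook targets of E2F transcription factors, which act late in G1.

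The promoters of the members were therefore read for the letters of the E2F motif. Of the 47 members, 39 matched a RefSeq promoter of GRCm38.p6 that runs from 250 bases before the gene's start to 50 after it. The spellings TTTCCCGC, TTTCGCGC, TTTGCCGC and TTTGGCGC were searched on both strands. At least 1 of them lay in the promoters of 15 members (38.5%), against 704 of 27025 genes (2.6%). They lay in 7 of 10 licensing promoters, 3 of 6 of the polymerases and primase, both of the methylation genes, 2 of 10 of the clamp and loader group and 1 of 5 of the firing genes. None of the 4 nucleotide synthesis promoters held a match, and none of the 2 control promoters (*E2f1* and *Slbp*) did. Among other genes, 16 of 40 other replication genes and 1 of 15 mitotic genes (6.67%) had one. The windows below show matches in genes of licensing and of polymerase alpha and a stretch of the *Rrm2* promoter without one, for members described further on, with the motif in capitals, written 5′ to 3′ on the strand of the gene.
Mcm6, chr1:128359719-128359778, minus strand: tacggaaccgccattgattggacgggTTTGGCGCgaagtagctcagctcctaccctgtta
Mcm5, chr8:75109330-75109393, plus strand: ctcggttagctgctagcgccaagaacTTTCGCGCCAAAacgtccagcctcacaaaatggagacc
Cdc6, chr11:98907987-98908046, plus strand: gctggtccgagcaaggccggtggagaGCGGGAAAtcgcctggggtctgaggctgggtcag
Pola1, chrX:93632260-93632319, minus strand: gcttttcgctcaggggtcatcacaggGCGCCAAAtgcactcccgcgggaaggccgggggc
Rrm2, chr12:24708174-24708253, plus strand: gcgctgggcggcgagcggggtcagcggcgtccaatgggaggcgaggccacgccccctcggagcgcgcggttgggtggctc
The capitals of *Mcm5* hold a pair of matches, on opposite strands, that share 4 letters. A match is a description of the letters and shows no binding. A promoter without a match may hold other spellings or sites outside the window, so a missing match does not show that E2F is absent.

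Cells held 132412 to 1825420 counts, with a median of 789357, and the summed host totals lay between 26778559 and 114987280. Of 8 B cell markers, 7 reached 10 CPM (a gene's count scaled to the sum of all counts) in the mean over hosts, and the list summed to 5577 to 8029 CPM per host. The GC list summed to 2210 to 2920 CPM, the LZ list to 1812 to 2828 CPM and the dark zone list to 803 to 1282 CPM. The plasma cell list summed to 893 to 1522 CPM, with 4 of its 5 genes at 10 CPM or more. T cell markers summed to 3.40 to 58.3 CPM and macrophage markers to 22.1 to 36.3 CPM, with 1 gene of each list at 10 CPM or more and *Cd14* at 0. *Ms4a1*, the gene of the B cell marker CD20, was listed at 0 in every cell, so a 0 in this matrix need not mean that a gene was silent.

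Of the members, 46 had counts, and most of them were seen in a largely all-or-none way from cell to cell. *Tk1*, a thymidine kinase of the salvage pathway, was listed at 0 in all 637 cells, which allows a share of cells with a count of up to 0.471% in this matrix and sets no limit on the cells that express it. *Rfc1*, the large subunit of the clamp loader, had a count in 91.2% of cells, and *Pola1*, the catalytic subunit of polymerase alpha, in 75.5%. The helicase genes lay between 54.8% (*Mcm4*) and 66.7% (*Mcm6*). *Rrm2* had a count in 49.0% of cells and *Pcna* in 50.1%, and the loader *Cdc6* in 26.5%. At the low end were *Orc1*, the origin-binding ATPase, with 15.1% of cells and the factor *E2f1* with 12.7%. Where a gene was seen it was mostly seen well: the median count in such a cell was 741 for *Rrm2*, 720 for *Mcm6*, 585.5 for *Mcm2* and 370.0 for *Cdc6*. *Fen1*, the flap nuclease, was an exception, with a median of 27.0 counts in the 43.5% of cells that had any, and *Orc1* had a median of 21.0. Several other members often had low counts. Of the cells with a count, 40.4% held under 10 for *Orc2*, 38.8% for *Dbf4* and 36.0% for *Pole*, against 8.01% for *Rrm2*. A cell without a count may hold transcripts that were not captured, and SMART-seq2 carries no molecular identifiers, so shares and counts describe libraries and not molecules.

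Summed over the cells of a host, levels differed between hosts. *Mcm6* ranged from 400 to 747 CPM with a median of 616 CPM, a mean of 611 ± 110 (SD, n = 8 hosts). *Mcm2* ranged from 327 to 528 CPM (median 403), *Mcm3* from 327 to 538.6 CPM (median 481), *Mcm4* from 309.6 to 453 CPM (median 396) and *Mcm5* from 326 to 542 CPM (median 508). For these 5 genes the lowest host was A8. *Rrm2* ranged from 342 to 599 CPM (median 449), again lowest in A8 and highest in A11. *Pcna* ranged from 77.0 to 169 CPM (median 131) and *Cdc6* from 45.4 to 184 CPM (median 117).

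A single cell had counts for 2 to 43 members, with a median of 21 and quartiles of 10 and 30. All 6 of *Mcm2* to *Mcm7* were seen in 165 cells (25.9%) and none of them in 76 cells (11.9%). The cells were then ranked within each host by the mean log2(CPM + 1) of *Ccnb2*, *Plk1* and *Cdc20*, genes of mitotic entry and exit that are not members. The 337 cells (52.9%) with no count of any of these 3 genes tied at the lowest rank and form the bottom class, the cells above them split into a middle class of 85 cells and a top class of 215 cells. The middle class had 5 or more cells in 7 hosts, all but A8. In A8 the tied cells made up 66.3% of the host, so its 30 other cells all fell in the top class and none in the middle class. The top class of A8 thus also holds cells that in other hosts could fall in the middle class. The values of the middle class rest on few cells. The 18 other mitotic genes kept as a check were higher along the classes, from a summed 1187 ± 254 CPM in the bottom class to 3314 ± 1088 CPM in the middle class and 7299 ± 953 CPM in the top class.

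Cells of the middle class carried the most replication genes in the mean over hosts, but the hosts of the middle and the top class overlapped. Per host the mean number of members with a count lay between 20.6 and 29.4 in the middle class and between 21.6 and 27.0 in the top class. The mean number of members with a count per cell was 16.7 ± 2.47 in the bottom class (SD, n = 8 hosts), 26.2 ± 3.15 in the middle class (n = 7) and 24.2 ± 1.85 in the top class (n = 8). At least 30 members were seen in 17.2% of bottom cells, 56.5% of middle cells and 32.6% of top cells, and 10 or fewer in 38.3%, 9.41% and 12.1%. All 6 helicase genes were seen in 17.6 ± 6.74% of bottom cells, 47.6 ± 13.8% of middle cells and 26.3 ± 12.9% of top cells. The bottom class was mixed: 59 of its cells held counts for 6 to 8 members, 53 for 9 to 11 and 58 for 30 or more. Depth moved with the class as well: the median total per cell was 708639, 772713 and 852021 counts in the 3 classes, and the median number of genes with a count was 3700, 4362 and 4370. With every cell thinned to 459128 counts the mean numbers were 16.6, 26.8 and 23.8 members, and all 6 helicase genes were seen in 19.1%, 49.8% and 27.7% of cells.

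**Figure D1:**
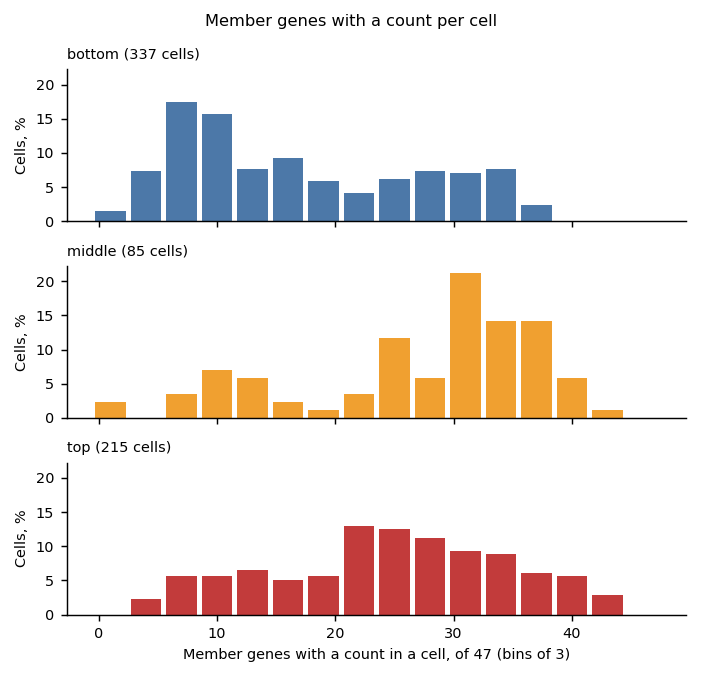
Number of member genes with a count in a cell (x axis, bins of 3, of 47 members) against the share of cells in percent (y axis), for the bottom (337 cells), middle (85 cells) and top (215 cells) mitotic class. Bottom cells are most frequent at 6 to 8 members (17.5%) and reach up to 38, while 56.5% of middle cells and 32.6% of top cells reach 30 or more.

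The mean share of cells with a count was higher in the top than in the bottom class for 45 of 46 members, and for none was it lower in every host. It was higher in the top class in all 8 hosts for 23 of 46 members, against 8.42% of the 20802 genes tested and 16.0% of the 10491 of them seen in at least 10% of cells. The median difference was 15.6 percentage points over members and 5.30 points over genes of that detection. A typical gene was thus also higher in the top class, and how many of all genes had a higher mean share was not counted. With cells thinned the count was 18 members, against 6.71% of all genes. All 3 nucleotide synthesis genes with counts were among the 23, with 8 of 11 in the clamp, loader, ligase and RPA group, 4 of 8 firing genes, 4 of 8 polymerase genes and 4 of 12 licensing genes, and none of the methylation and control genes. These shares were compared by counting hosts, with no test. Here and in the share comparisons below, the background genes were not matched to the members in how often they were seen. The part of detection in the gap between members and other genes was therefore not tested.

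*Rrm2* had the widest gap. Its share of cells was 16.0% to 42.9% per host in the bottom class and 58.3% to 77.8% in the top class, so the hosts did not overlap, and the difference was 42.5 ± 10.7 points (SD, n = 8). Its partner *Rrm1* went from 34.6 ± 8.61% to 71.1 ± 15.0% and *Tyms* from 23.1 ± 9.07% to 46.5 ± 13.6%. Among fork genes, the loader subunit *Rfc5* went from 26.4 ± 7.65% to 55.7 ± 8.51%, *Rpa3* of the single-strand binding complex from 25.6 ± 8.38% to 53.5 ± 12.2% and *Cdc45* from 25.2 ± 10.5% to 53.0 ± 12.6%. Among the helicase genes, *Mcm7* and *Mcm5* were higher in all 8 hosts, with differences of 23.6 ± 15.1 and 22.4 ± 12.9 points, while *Mcm6* had 63.9 ± 12.9% in the top class and 61.6 ± 11.2% in the bottom class, higher in 4 of 8 hosts. *Gmnn*, the inhibitor of licensing, went from 26.8 ± 11.3% to 52.0 ± 7.39%. *Orc1* (13.5% against 13.1%) and *E2f1* (10.4% against 10.99%) showed no gap beyond their spread.

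**Figure D2:**
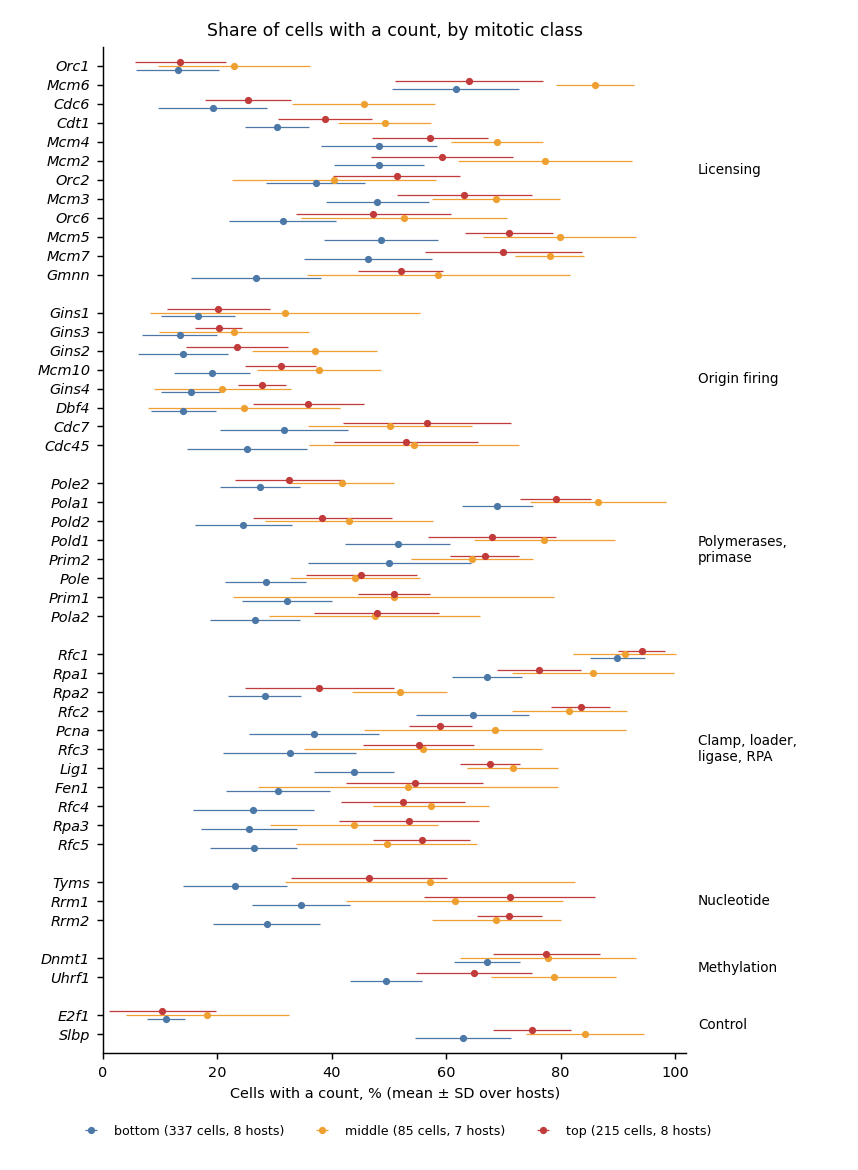
Share of cells with a count (x axis, percent, mean ± SD over hosts) for each of 46 members (y axis, grouped by role), with the bottom (337 cells, 8 hosts), middle (85 cells, 7 hosts) and top (215 cells, 8 hosts) mitotic class in blue, orange and red. The licensing genes *Mcm6* and *Cdc6* peak in the middle class, at 86.0% and 45.6%, while *Dbf4* reaches its highest share, 35.9%, in the top class.

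Between the bottom and the middle class, the mean share was higher in the middle class for all 46 members with counts. The median difference was 19.7 points over members and 3.82 points over genes seen in at least 10% of cells, so a typical gene was also higher there. The share was higher in all 7 hosts for 19 of 46 members (41.3%), against 2.72% of all genes tested and 5.26% of those seen in at least 10% of cells. The 19 held 7 of 12 licensing genes, 2 of 8 firing genes, 2 of 8 polymerase genes, 4 of 11 of the clamp group, 2 of 3 nucleotide genes, *Uhrf1* and *Slbp*. The median difference was 32.8 points over the nucleotide genes, 22.3 over the clamp group and 21.1 over the licensing genes. *Mcm6* went from 64.4 ± 8.65% to 86.0 ± 6.78%, *Mcm2* from 49.1 ± 8.14% to 77.2 ± 15.2%, *Mcm5* from 51.2 ± 7.23% to 79.9 ± 13.4% and *Cdc6* from 19.5 ± 10.3% to 45.6 ± 12.5%. *Uhrf1*, which guides the maintenance methyltransferase *Dnmt1* to new DNA, went from 49.8 ± 6.70% to 78.8 ± 10.9%, while *Dnmt1* itself moved by 10.1 ± 19.5 points. With cells thinned the count was 25 of 46 members over 6 hosts, against 4.1% of all genes.

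Between the middle and the top class, *Mcm6* and *Cdc6* were the members whose share was lower in the top class in all 7 hosts. They are 4.35% of the members, against 0.236% of all genes tested and 0.419% of those seen in at least 10% of cells. *Mcm6* was at 76.9% to 94.4% per host in the middle class and at 42.1% to 79.5% in the top class, a difference of -21.5 ± 9.59 points. *Cdc6* was at 33.3% to 62.5% in the middle and at 13.3% to 39.5% in the top class, a difference of -19.95 ± 12.1 points. Both genes belong to licensing, the step that ends as S phase begins. *Dbf4*, the activator of *Cdc7*, was the only member with a higher share in the top class in all 7 hosts. Its share was 37.2 ± 9.69% there and 24.7 ± 16.8% in the middle class. That is 2.17% of the members, against 1.59% of all genes tested and 2.75% of those seen in at least 10% of cells. Members were thus higher in every host no more often than other genes of that detection. With cells thinned, over 6 hosts, 5 members were lower in every host (*Mcm4*, *Mcm6*, *Cdc6*, *Rpa1* and *Uhrf1*). That is 10.9% of the members, against 0.668% of all genes tested and 1.27% of those seen in at least 10% of cells. *Dbf4* was higher in 4 of 6 hosts there.

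The level in the cells that had a count gave no separate result for the members. Over the 41 members with at least 4 hosts, the median log2 ratio of top to bottom class was -0.22, with 28 below 0 and 13 above, and over the 7521 genes of the same kind it was -0.23, with 69.6% below 0. In every host, 3 members (*Mcm5*, *Fen1* and *Rfc5*) were lower, against 10.2% of those genes. *Mcm5* was lower in the top class in each host, at a median of 581 CPM against 893 CPM per cell with a count (log2 ratio -0.63 ± 0.20, SD, n = 8 hosts). *Fen1* had a log2 ratio of -0.52 ± 0.35 over 8 hosts and *Rfc5* of -0.34 ± 0.20 over 7. *Rrm2* had a log2 ratio of 0.28 ± 0.45, higher in 5 of 7 hosts. *Dbf4* had the largest ratio of the 41: cells of the bottom class that had a count held a median of 8.18 CPM and those of the top class 203 CPM, a log2 ratio of 4.74 ± 2.50 over 5 hosts. No test was run on these levels.

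The summed counts of each host and class combine share and level, and were compared by edgeR's quasi-likelihood test with the host as block and Benjamini-Hochberg adjustment over 20802 genes. From bottom to top class 1 of 46 members passed the adjusted threshold of 0.05, against 0.409% of all genes (85 genes, 0.245% higher and 0.163% lower). It was *Rrm2*, which rose by a log2 fold change of 1.12 (SE 0.23, adjusted p = 0.039). *Rrm2* ranged from 180.1 to 425 CPM in the bottom class (median 267) and from 422 to 776 CPM in the top class (median 594), and A7 and A10 were the hosts at that boundary. The call was lost on leaving out any of 6 single hosts, with an adjusted p between 0.0964 and 0.155 and a fold change between 1.07 and 1.17. It was also lost without the low-count filter (adjusted p = 0.053) and with classes set by how many of the 3 ranking genes had a count (0.0955). The size of the change differed between settings. With the 18 other mitotic genes as the ranking it was 6.58 (SE 1.19, edgeR adjusted p = 0.0036). With limma, on the mean log2(CPM + 1) of cells, it was 4.03 (SE 0.49, adjusted p = 3.0e-05). At an unadjusted p below 0.05 there were 8 members, against 6.96% of all genes. Besides *Rrm2* these were *Dbf4* (2.33, SE 1.08), *Rrm1* (1.15, SE 0.51), *Cdc45* (0.70, SE 0.29), *Pcna* (0.69, SE 0.25), *Rfc4* (0.66, SE 0.24), *Lig1* (0.49, SE 0.23) and, downward, *Mcm6* (-0.34, SE 0.16, turning to 0.095 with limma and 0.60 with 18 other mitotic genes as the ranking), with adjusted p-values of 0.51 to 0.72. The median over members was 0.23, with 35 of 46 above 0, against -0.15 over all genes tested, and 41 of 46 lay above that all-gene median. For licensing the median was -0.06, with 5 of 12 genes above 0, unlike the shares of cells, and 10 of 12 above the all-gene median. The all-gene median covers all genes tested and not only genes seen as often as the members. The role median was 0.68 for firing, 0.25 for polymerases and primase, 0.39 for the clamp group and 1.12 for nucleotide synthesis. For methylation it was 0.14 and for control -0.74.

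*Dbf4*, *Rrm1* and *Mcm6* show what such a summary holds. *Dbf4* ranged from 0.403 to 47.2 CPM in the bottom class (median 24.1) and from 62.4 to 139 CPM in the top class (median 90.3), with no overlap. *Rrm1* ranged from 115 to 342 CPM in the bottom class (median 235) and from 310.3 to 669 CPM in the top class (median 480.4), where only A8 in the top class lay below A10 in the bottom class. *Mcm6* ranged from 319 to 911 CPM (median 629) in the bottom and from 376 to 623 CPM (median 538) in the top class, with wide overlap.

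**Figure D3:**
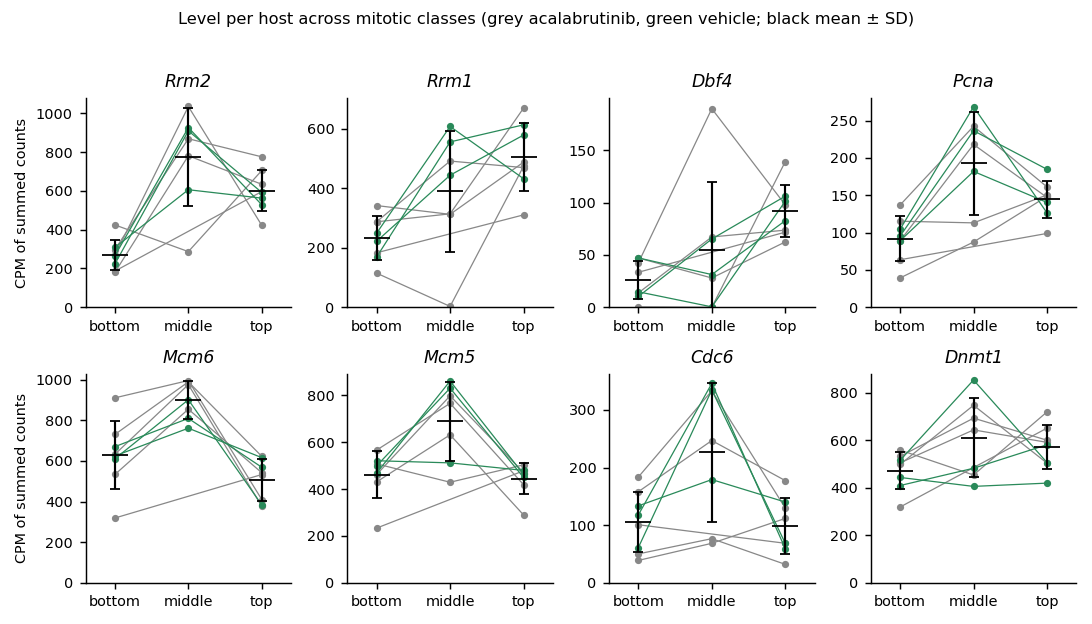
Level per host in CPM of summed counts (y axis) in the bottom, middle and top mitotic class (x axis) for *Rrm2*, *Rrm1*, *Dbf4*, *Pcna*, *Mcm6*, *Mcm5*, *Cdc6* and *Dnmt1*, with lines joining the classes of a host (grey acalabrutinib, green vehicle) and the mean ± SD in black. *Rrm2* averages 269, 774 and 602 CPM along the classes and *Mcm6* 629, 899 and 507 CPM, while *Dbf4* averages 26.2, 54.5 and 91.9 CPM.

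From bottom to middle class, *Rrm2* was again the 1 member that passed (log2 fold change 1.38, SE 0.24, edgeR adjusted p = 0.045), against 0.0721% of all genes (15 genes, 0.0385% higher and 0.0337% lower). It ranged from 287 to 1035 CPM over the 7 hosts of the middle class (median 869), and A10 was the only host in which it lay below the bottom class. The call was lost on leaving out any single host but A10, with a fold change between 1.30 and 1.502 and an adjusted p between 0.06004 and 0.17. It was also lost without the low-count filter (edgeR adjusted p = 0.062) and with thinned cells (0.097). With the 18 other mitotic genes as the ranking the change was 5.87 (SE 1.17, edgeR adjusted p = 0.022). With limma, on the mean log2(CPM + 1) of cells, it was 4.34 (SE 0.51, adjusted p = 0.00035). *Pcna* ranged from 39.3 to 137 CPM in the bottom class (median 92.2) and from 87.4 to 269 CPM in the middle class (median 218). *Cdc6* ranged from 38.8 to 184 CPM in the bottom class (median 109) and from 68.5 to 346 CPM in the middle class (median 247). Both overlapped, and neither passed (*Pcna* 0.90, SE 0.26, adjusted p = 0.32, and *Cdc6* 0.94, SE 0.35, adjusted p = 0.42). At an unadjusted p below 0.05 there were 15 members, all upward, against 9.61% of all genes, led after *Rrm2* by *Pola1* (0.66), *Pold1* (0.68), *Pcna*, *Rfc4* (0.76), *Cdc45* (0.89), *Mcm7* (0.63) and *Cdc6*. The all-gene median of this comparison lay at -0.75 (at -0.61 with RLE scaling), so relative to it *Rrm2* stood at 2.13, and 45 of 46 members lay above it, with a member median of 0.47. That median covers all 20802 genes tested, of which 10491 were seen in at least 10% of cells. None was taken over genes seen as often as the members, so a comparison with such genes was not made.

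From middle to top class no member passed in edgeR, against 0.00961% of all genes (2 genes). At an unadjusted p below 0.05 there were 6 members, all downward, against 7.06% of all genes in either direction. DESeq2 called 4 members (*Cdc6*, *Mcm5*, *Mcm6* and *Pold1*), all lower in the top class, against 8.66% of all genes in either direction. Counted in either direction, it called members about as often as other genes. The share of all genes that it called lower is not given here, so the downward calls are not set against it. In limma, on cells weighted equally, *Mcm6* and *Cdc6* were called, against 0.591%. *Mcm6* ranged from 762 to 996 CPM in the middle class (median 902) and from 376 to 623 CPM in the top class (median 538), with no overlap (log2 fold change -0.71, SE 0.17, edgeR adjusted p = 0.37). *Cdc6* ranged from 31.9 to 177 CPM in the top class (median 90.1), below the middle class in 6 of 7 hosts (-1.05, SE 0.35, adjusted p = 0.67). With the 18 other mitotic genes as the ranking, *Cdc6* turned to 0.081 and *Pola1* to 0.079. *Mcm5* (-0.50), *Mcm2* (-0.48), *Pold1* (-0.45), *Pola1* (-0.39) and *Mcm3* (-0.38) had the same sign, and *Rfc5* (0.54) the opposite one. The all-gene median lay at 0.52 here (0.41 with RLE scaling), and *Mcm6* stood at -1.24 relative to it. This median, too, covers all genes tested and not only genes seen as often as the members.

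**Figure D4:**
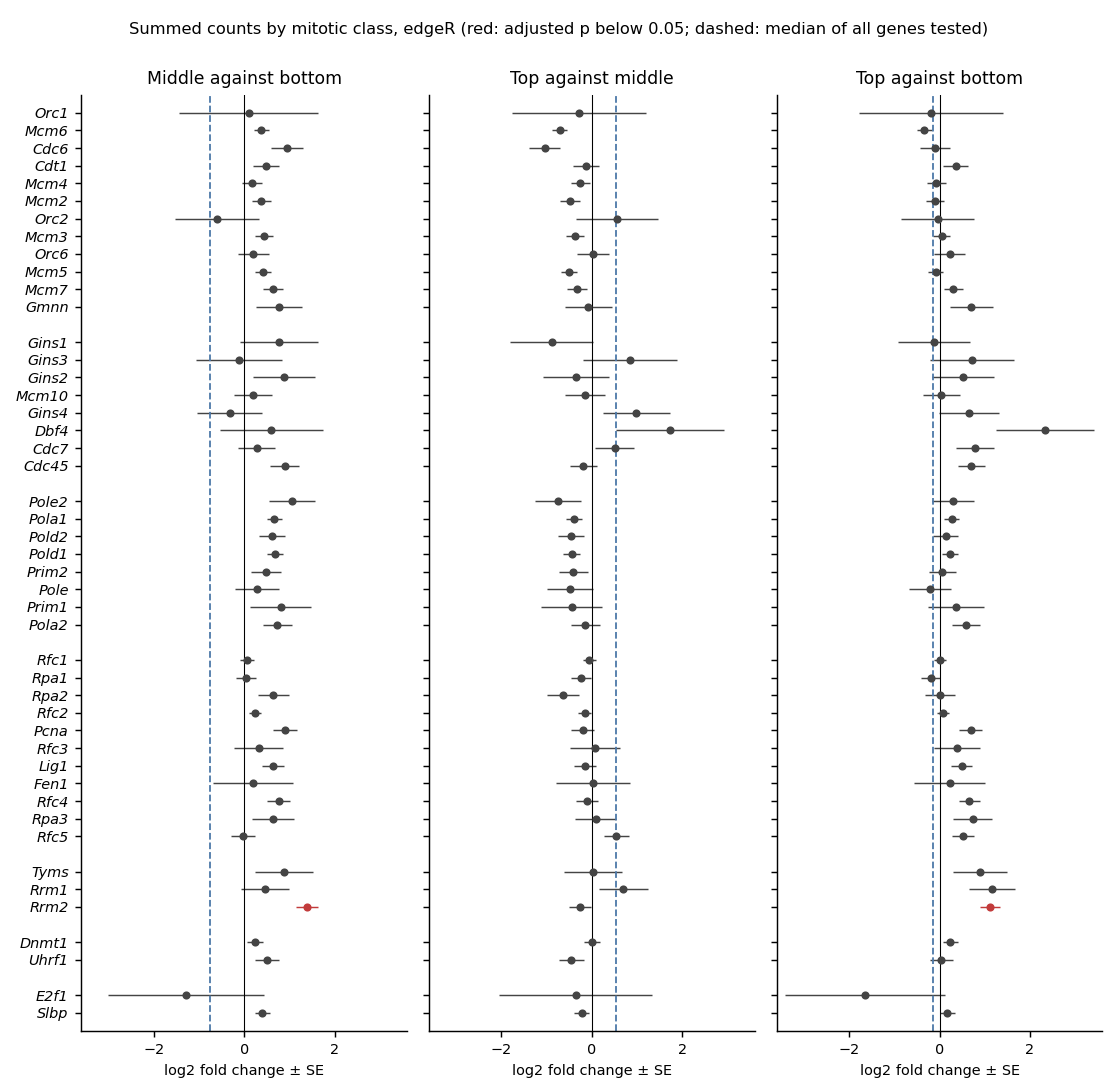
log2 fold change ± SE from edgeR (x axis) of 46 members (y axis, by role) for middle against bottom, top against middle and top against bottom mitotic class, with the median of all genes as a dashed line and adjusted p below 0.05 in red. *Rrm2* is red at 1.38 and 1.12, no member is red in top against middle, and the licensing genes *Mcm6* and *Cdc6* lie at -0.71 and -1.05 there (*Cdc6* at 0.081 with the 18 other mitotic genes as the ranking).

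Of the 53 other replication genes listed, 1 passed between bottom and top class, *Ccna2*, the cyclin of S phase and G2 (log2 fold change 3.01, SE 0.37), and none between bottom and middle. Of the 18 check genes, all of mitosis and chromosome segregation, 8 rose from bottom to top and 2, *Birc5* and *Aurkb*, from bottom to middle. The number of members that passed differed between rankings and tools. With the 18 other mitotic genes as the ranking, 17 members passed between bottom and top class, against 2.39% of all genes, and limma with every cell weighted equally called 14, against 4.07%. Between middle and bottom class these gave 12 members, against 0.63%, and 16, against 0.918%, and DESeq2 gave 12, against 10.1%. With the 18 other genes no member passed between top and middle class, against 0.0774%. Between top and bottom class DESeq2 called 3 (*Rrm2*, *Pcna* and *Rfc4*), all higher in the top class. That compares with 5.79% of all genes in either direction, so members were called about as often on that count. The share of all genes that DESeq2 called higher is not given here. Cells thinned to equal total counts gave 2, *Rrm2* and *Rrm1*, against 0.555%. Thinned cells gave none between middle and bottom class, against 0.0882%.

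As a measure of order, the ranking was cut into 5 rank classes and each member's mean position over them was taken, weighted by its CPM in each, where a gene of even level would lie at 3.26. The 5 rank classes held 337, 0, 49, 121 and 130 cells because of the ties, so positions lie close together. The lowest were *E2f1* (2.67 ± 1.05, SD, n = 8), *Mcm6* (3.13 ± 0.26), *Rpa1* (3.15 ± 0.16) and *Orc1* (3.19 ± 1.17). The highest were *Dbf4* (3.93 ± 0.35), *Rrm1* (3.68 ± 0.23), *Rrm2* (3.61 ± 0.20) and *Rfc4* (3.56 ± 0.20). *Dbf4*, *Rrm1*, *Rrm2*, *Rfc5* and *Pcna* lay above the even level in 8 of 8 hosts. By role the median position was 3.26 for licensing, 3.33 for polymerases and primase, 3.47 for firing and for the clamp group, and 3.61 for nucleotide synthesis. Neighbours in this order were closer than their SD over hosts. At the low end, *E2f1*, *Mcm6* and *Rpa1* each lay above the even level in 2 of 8 hosts and *Orc1* in 4. Among the members, only some toward the high end thus lay on 1 side of the even level in every host. Positions of other genes were not taken, so how often any gene does so is not known. Within a host, the Spearman correlation of a member with the ranking score over cells was highest for *Rrm2* (mean of 8 hosts 0.37) and *Rrm1* (0.34) and lowest for *Mcm6* (-0.04), as a description over cells that share plates and depth.

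Levels of members were compared with each other over the cells of a host. Over all 1035 pairs the within-host Spearman rho of the level over cells had a median of 0.23 as a mean over 8 hosts, and 1029 pairs were above 0. Pairs of genes outside the members and the mitotic check list were not measured. How often any pair of genes lies above 0 is therefore not known, and the count is not a trait of the members. The 15 pairs within *Mcm2* to *Mcm7* had a median of 0.45 and the pairs of a member with a mitotic check gene 0.14, against 0.44 within the check genes. *Rrm2* was the hub of the list, with a median of 0.40 with the other members and the 8 highest pairs of all: *Pcna* (0.61), *Lig1* (0.59), *Cdc45* (0.57), *Tyms* and *Rrm1* (0.54 each), *Mcm7* (0.54), *Rfc4* (0.53) and *Gmnn* (0.51). *Mcm6* was tied to the rest of the helicase (0.48) but not to the mitotic genes (-0.02). *Dbf4* (0.08) and *Rfc1* (0.07) were the least tied to other members. Cells of a host share plates and differ in depth, and the part of both in these correlations was not tested.

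*Myc*, the factor induced on selection, was seen in 177 of 637 cells. Cells with a *Myc* count had 22.4 ± 4.05 members (SD, n = 8 hosts) and cells without 19.4 ± 1.72, and the median number of genes of all kinds was 4250 and 3814. The share of cells was higher with *Myc* in all 8 hosts for 1 member, *Tyms* (41.9 ± 14.4% against 32.3 ± 8.63%), against 2.9% of all genes tested and 5.61% of those seen in at least 10% of cells, so no more often than other genes. *Rrm1* (64.6 ± 12.6% against 46.4 ± 11.5%) and *Rfc5* (52.5 ± 13.0% against 34.9 ± 7.57%) had wider gaps in 6 and 7 of 8 hosts. *Rfc1* went the other way, from 93.6 ± 2.75% without *Myc* to 84.2 ± 6.10% with it, lower in 7 of 8 hosts. All 6 helicase genes were seen in 27.6 ± 13.8% of cells with *Myc* and 21.5 ± 4.29% without, a gap within the spread.

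In the summed counts no member passed in edgeR between cells with and without *Myc*, against 0.0238% of all genes (5 genes, 0.019% higher and 0.00475% lower), and 2 members had an unadjusted p below 0.05, against 9.56% of all genes. They were *Rfc1* (log2 fold change -0.86, SE 0.25, adjusted p = 0.38) and *Cdc7* (-0.66, SE 0.24, adjusted p = 0.50). *Rfc1* ranged from 130.4 to 626 CPM in cells with *Myc* and from 617 to 856 CPM in cells without, and it was lower with *Myc* in each of the 8 hosts. *Dnmt1* (-0.41), *Slbp* (-0.36), *Mcm2* (-0.35), *Rpa1* (-0.25), *E2f1* (-2.43, SE 1.76) and *Tyms* (0.46) followed. The all-gene median of this comparison was -0.72, and 39 of 46 members lay above it. Relative to it *Rfc1* stood at -0.14 and *Tyms* at 1.18. That median covers all 21032 genes tested, of which 10583 were seen in at least 10% of cells. The share of cells went the other way, higher with *Myc* by a median of 1.05 points over all genes tested. No median fold change was taken over genes seen as often as the members. How these negative values compare with such genes was not tested.

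Among the 337 cells with none of the mitotic ranking genes, *Myc* was seen in 84, and 6 hosts had 5 or more cells on both sides. There, 2 members had a higher share with *Myc* in all 6 hosts, against 3.07% of all genes tested and 4.87% of those seen in at least 10% of cells, a number near the background: *Mcm6* (74.8 ± 15.7% against 60.1 ± 11.8%) and *Pold2*, a polymerase delta subunit (39.99 ± 12.1% against 20.6 ± 9.55%). No member and no gene passed in edgeR, with 1451 genes and 2 members (*Orc2* 1.54, SE 0.55, and *Dbf4* -5.35, SE 2.08) at an unadjusted p below 0.05. *Orc2*, an origin-binding subunit, ranged from 76.6 to 264 CPM with *Myc* in these 6 hosts and from 22.8 to 79.1 CPM without in all 8. *Dbf4* ranged from 0 to 10.2 CPM with *Myc* and from 0.218 to 66.3 CPM without, so its fold change rests on hosts near 0. DESeq2 called 3 members, *Orc2*, *Dbf4* and *E2f1*, against 8.95% of all genes, so no more often than other genes. In limma none was called, against 0.00593%. *Pola1* (-0.32), *Rfc1* (-0.54), *Lig1* (-1.08), *Mcm2* (-0.54), *Dnmt1* (-0.30) and *E2f1* (-4.54) had the next smallest p. The all-gene median was -0.91 here.

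The treatment question was whether hosts given acalabrutinib differ from hosts given vehicle in these genes. The programme as a whole overlapped between them: the mean number of members per cell was 20.2 ± 2.80 in 5 acalabrutinib hosts and 20.7 ± 1.79 in 3 vehicle hosts, and the share of cells without a mitotic ranking gene was 54.4 ± 7.66% and 51.6 ± 3.39%. *Myc* was seen in 26.5 ± 13.5% and 22.3 ± 12.8% of cells. In the summed counts no gene of 18016 and no member passed in edgeR (616 genes and 2 members at an unadjusted p below 0.05, 3.42% of all genes). DESeq2 called 1 member, against 0.548% of all genes.

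That member was *Mcm7*, a helicase subunit. It was at 254 CPM in A7, 299 in A8, 307 in A10, 360.4 in A11 and 334 in A12, and at 474 CPM in V5, 436 in V7 and 454 in V9. The groups did not overlap. The mean was 311 ± 39.9975 CPM with acalabrutinib and 455 ± 19.3 CPM with vehicle, a log2 fold change of -0.58 (SE 0.14, unadjusted p = 0.0021 and adjusted p = 1.0 in edgeR, and -0.56 with adjusted p = 0.016 in DESeq2). It was the 1 member of 46 whose CPM did not overlap, lower with acalabrutinib. Of all genes tested, 1.15% were lower and 1.03% higher without overlap, so 1 member of 46 is a number near the background. The share of cells with *Mcm7* overlapped between the treatments. The other helicase genes overlapped between the treatments, each with a lower mean with acalabrutinib, and whether *Mcm7* differs from them was not tested: *Mcm6* was at 606 ± 141 and 619 ± 53.7 CPM, *Mcm2* at 407 ± 87.4 and 425 ± 45.6 CPM, *Mcm3* at 457 ± 77.4 and 477 ± 63.1 CPM, *Mcm4* at 379 ± 65.3 and 407 ± 25.9 CPM and *Mcm5* at 457 ± 93.3 and 519 ± 19.99 CPM.

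*Rfc4*, a clamp loader subunit, was at 100.5, 99.9, 113, 151 and 121 CPM in A7, A8, A10, A11 and A12, and at 173, 139.4 and 149 CPM in V5, V7 and V9. A11 overlapped the vehicle hosts (log2 fold change -0.42, SE 0.19, edgeR adjusted p = 1.0). *Cdc7* was at 205 ± 16.5 and 242 ± 37.5 CPM (-0.27, SE 0.17), and its share of cells, 40.3 ± 6.59% and 46.0 ± 0.523%, was the 1 share of a member that did not overlap. Of all genes, 0.994% were lower and 0.81% higher in this way, so this number too is near the background. *Prim1* (-0.39), *Rfc5* (-0.35), *Mcm10* (-0.33), *Mcm5* (-0.22) and *Pole* (0.27) had the next smallest p. *Rrm2* was at 458 ± 103 CPM with acalabrutinib and 458 ± 23.5 CPM with vehicle, and *Pcna* at 118 ± 38.1 and 137 ± 17.7 CPM, so the spread among acalabrutinib hosts covered the vehicle hosts.

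**Figure D5:**
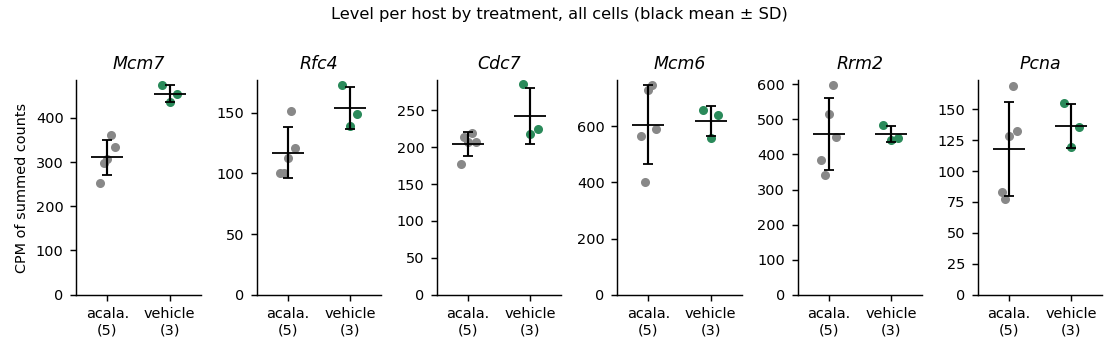
Level per host in CPM of summed counts (y axis) of *Mcm7*, *Rfc4*, *Cdc7*, *Mcm6*, *Rrm2* and *Pcna* in 5 acalabrutinib and 3 vehicle hosts (x axis), with the mean ± SD in black. *Mcm7* lies between 254 and 360.4 CPM with acalabrutinib and between 436 and 474 CPM with vehicle, while *Mcm6*, *Rrm2* and *Pcna* overlap.

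Within the mitotic classes no gene passed between the treatments either. In the bottom class 0 of 14703 genes passed in edgeR (492 at an unadjusted p below 0.05, 3.35%), and 1 member, *Mcm7* (-0.48, SE 0.19), was among these. *Mcm4* (-0.44), *Rpa2* (-0.46), *Mcm10* (-0.66), *Rfc5* (-0.48), *Lig1* (-0.40), *Cdt1* (-0.35) and *Prim1* (-0.36) followed. In the top class 0 of 13601 genes passed (457 at an unadjusted p below 0.05, 3.36%), and the members among these were *Mcm7* (-0.72, SE 0.32) and *Lig1* (0.48, SE 0.20). *Rpa2* (0.72), *Tyms* (0.80), *Mcm2* (0.35), *Pole* (0.93), *Rfc5* (-0.29) and *Dnmt1* (0.27) followed. *Mcm7* had the same sign in both classes, but their cells also entered the comparison of all cells that singled it out, so this is no separate support. *Lig1*, the ligase that joins lagging-strand fragments, and *Rpa2* had opposite signs. With the 18 other mitotic genes as the ranking the bottom-class values turned to 1.43 for *Lig1* and 0.29 for *Rpa2*. The difference between the classes was tested as an interaction, in which 0 of 19924 genes passed (439 at an unadjusted p below 0.05, 2.2%). *Rpa2* (1.19, SE 0.43), *Lig1* (0.86, SE 0.31, turning to -0.95 with the 18 other genes) and *Tyms* (1.25, SE 0.49) were the members below that p, and *Mcm2* (0.56), *Cdt1* (1.005), *Mcm3* (0.63), *Mcm4* (0.64) and *E2f1* (6.33, SE 4.20) had the next smallest p. Every adjusted p of a member in these 3 comparisons was 0.999 or above.

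Hosts of the same treatment differed as well. The mean number of members per cell was 17.8 in A7, 16.9 in A8, 21.4 in A10, 23.5 in A11, 21.6 in A12, 20.3 in V5, 19.1 in V7 and 22.6 in V9. A8, the host with the fewest, also had the largest share of cells without a mitotic ranking gene (66.3%), and A11, with the most, the smallest (45.6%). *Myc* was seen in 10.9% of cells in V7 and 11.1% in A7, and in 43.9% in A11 and 36.2% in V9. The part of depth, plate, experiment and cell number in these host values was not tested.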

How the data were processed

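LZ GC B cells were sorted into wells of 15 plates and libraries were made by SMART-seq2, which carries no molecular identifiers. Per the labels and the methods, the authors aligned reads with STARsolo (2.7.10a) to GRCm39, dropped reads of identical position, and deposited raw counts per gene and cell over exons and introns, with no normalization. Intervals and floors cover counting error only. Sorted single wells were taken as single cells and no doublet caller was run. Cell names give the host, plate and well, and hosts were assigned to treatments by the labels.

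Counts were divided by the cell or host total to give CPM. Cells were ranked within each host by the mean log2(CPM + 1) of *Ccnb2*, *Plk1* and *Cdc20* and split into 3 classes, and counts were summed per host and class where at least 5 cells were present. Sums were compared with edgeR (4.0.16, TMM scaling, its low-count filter, quasi-likelihood test in R 4.3.3) with the host as block, since the cells of a host come from 1 animal. Treatment was compared over hosts without a block. The paper states that the sorted cells came from more than 1 independent experiment. Sample titles and cell names do not give the experiment of a host. Its part in the differences between hosts and treatments was therefore not tested. P-values were adjusted over all genes tested by Benjamini-Hochberg, and members below 0.05 were called. Where fewer than 8 were called, the 8 members with the smallest p are named, with values per host for the largest changes, *Mcm2* to *Mcm7* and leading members of each role. Alternatives were RLE scaling, no filter, DESeq2 (1.42.0), limma (3.58.1) on the mean log2(CPM + 1) of cells, cells thinned to 459128 counts (64 shallower cells left out), 18 other mitotic genes as the ranking, classes by detection alone, no block, and each host left out. Plate in place of host, thinned shares and the overlap of CPM were added after seeing the data. The fitting steps were tested on simulated data. The members and lists were chosen with earlier results of these data known. Promoters came from RefSeq (GRCm38.p6), a different build from that of the counts, and were used for their sequence only. Shares were computed with Python (3.11.15), NumPy (2.4.6), pandas (2.3.3) and SciPy (1.17.1).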

Additional observations from a re-analysis of the deposited data

Results flagged for a closer look

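Among the 5 acalabrutinib hosts, 2 of the 46 members tested had 1 host far from the others, with a gap of more than 0.71 of the whole range, where chance alone sets apart about 1 group in 20. *Dbf4*, the activator of *Cdc7*, was at 88.1 CPM in A12, against 51.5 CPM in the next host and 47.6 CPM in the lowest (gap 0.903 of the range). *Rpa1*, the large subunit of the single-strand binding complex, was at 610.0 CPM in A11, against 488 CPM in the next host and 449 CPM in the lowest (gap 0.759 of the range). The vehicle group of 3 hosts was too small for this check.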

How the results depend on the processing

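The number of members called between the top and the bottom class was 1 as reported, against 0.409% of all genes. It became 3 with DESeq2, against 5.79% of all genes, and 14 with limma on cells weighted equally, against 4.07%. It was 2 with thinned cells, against 0.555%, and 17 with the 18 other mitotic genes as the ranking, against 2.39%. Without the low-count filter it was 0. Leaving out 1 host gave 0 to 2. Between the middle and the bottom class it was 1, against 0.0721% of all genes. It became 12 with DESeq2, against 10.1% of all genes, and 16 with limma, against 0.918%. It was 0 with thinned cells, against 0.0882%, and 12 with the 18 other genes, against 0.63%. Without the filter it was 0 and without the replicate block 3, and leaving out 1 host gave 0 to 3 (3 without A10). Between the top and the middle class it was 0, with 4 by DESeq2, against 8.66% of all genes, and 2 by limma, against 0.591%. DESeq2 called 3 members between cells with and without *Myc* in the bottom class, against 8.95% of all genes, and 1 between treatments, against 0.548%. Without the replicate block the number was 1 between top and bottom class and 0 in the comparisons of top with middle and of *Myc*. With plate in place of host, chosen after seeing the data, it was 1 between top and bottom and 1 between middle and bottom class. No call changed with RLE scaling, in 72 values compared. For fits without the filter, without the block, by plate or with 1 host left out, the share of all genes called is not given here. Their member counts are therefore not set against other genes. The cause of these changes was not tested.

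With 10 rank classes in place of 5, in the 5 hosts with the most cells and put back on the scale of 5 classes, the median position was 3.65 for licensing, 3.78 for firing, 3.66 for polymerases, 3.73 for the clamp group, 3.91 for nucleotide synthesis, 3.65 for methylation and 3.70 for all members, and with the 18 other genes it was 3.92 for nucleotide synthesis. The position of a gene of even level is not given for these settings, so their values cannot be read against 3.26. Of 46 members, 34 moved by 1 SD or more with 10 rank classes and 8 with the 18 other genes.

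Some log2 fold changes turned sign. Between top and bottom class, *Mcm6* was at 0.095 with limma and 0.60 with the 18 other genes. Between top and middle class, *Cdc6* and *Pola1* were at 0.081 and 0.079 with the 18 other genes and *Rfc5* at -0.060 with thinned cells. With and without *Myc*, limma gave 0.16 for *Mcm2* and 0.067 for *E2f1*. In the bottom class with and without *Myc*, *Pola1* was at 0.048 with limma and 0.17 with the 18 other genes, *E2f1* at 0.053 with limma, and *Lig1*, *Mcm2* and *Dnmt1* at 2.62, 0.50 and 0.39 with the 18 other genes. Between treatments in the bottom class the 18 other genes gave 0.29 for *Rpa2*, 2.04 for *Mcm10*, 0.35 for *Rfc5*, 1.43 for *Lig1*, 0.13 for *Cdt1* and 0.57 for *Prim1*, and *Prim1* lay between -0.54 (without V7) and 0.019 (without V5) on leaving out 1 host. In the top class, *Pole* was at -0.51 with classes by detection, and the interaction of *Lig1* was at -0.95 with the 18 other genes.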
